A study of Mus musculus with 20 samples.

Results

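Ptpra, Ptprb, Ptprd, Ptpre, Ptprf, Ptprg, Ptprj, Ptprk, Ptprm and Ptprs encode receptor-type protein tyrosine phosphatases (RPTPs), and they were followed gene by gene and mouse by mouse in the liver. These 10 genes were picked by symbol from the 53028 genes of the count table, and each had reads in all 20 libraries. The choice was made with results of these data known, because several of the genes stood high in livers treated with the SNORA73 LNA. Total RNA comparisons of the 10 genes are therefore given as a description without a test. RPTP genes had also been singled out earlier in a pathway analysis of the polysome libraries, so that polysome test values are no independent evidence either.

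The libraries came from male C57BL/6J mice on chow that received 3 intraperitoneal injections of 3 mg/kg of a locked nucleic acid antisense oligonucleotide (LNA), either against SNORA73, a small nucleolar RNA, or against GFP as a control sequence absent from mice. The design text gives an age of 8 weeks at injection, whereas the methods for liver polysomes give a somewhat older age. In those methods the mice also received cycloheximide, which holds ribosomes on their mRNA, shortly before death. From each of 10 livers, total RNA of the lysate (transcriptome) and RNA of the polysome fractions (translatome) were selected for poly(A) and sequenced. The GFP LNA group was mice 1, 2, 3, 8 and 9, and the SNORA73 LNA group was mice 4, 6, 10, 11 and 12. Values of a group are listed in that order throughout.

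RPTPs are single-pass membrane proteins with an adhesion-like extracellular part and a catalytic phosphatase part inside the cell, where they remove phosphate from tyrosines of receptors, kinases and junction proteins. They work against tyrosine kinases such as the insulin, EGF and HGF receptors, and some of them activate Src family kinases. The LAR group (Ptprf, Ptprd and Ptprs) carries immunoglobulin and fibronectin repeats and binds heparan sulfate proteoglycans. Ptprk and Ptprm bind copies of themselves on neighboring cells and sit at cell junctions. Ptprb, also called VE-PTP, is a phosphatase of endothelial cells that opposes the receptor Tek. Ptprj carries fibronectin repeats, Ptprg carries a domain that resembles carbonic anhydrase, and Ptpra and Ptpre have short extracellular parts.

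Total RNA libraries held 20005389 to 42023390 counts and polysome libraries 14852951 to 33824659 counts. Knockdown could not be read from the target itself in poly(A)-selected RNA, since no library held more than 2 counts of Snora73a or 4 of Snora73b. All 10 hepatocyte markers were detected in every group, with summed levels of 44201 to 80515 CPM, counts scaled to the size of the library after TMM normalization. Mice 9 and 10 stood apart in several of the genes below. In total RNA they also had the lowest hepatocyte marker sums, 44201 and 45512 CPM. Mouse 10 had the highest Kupffer cell, cholangiocyte and neutrophil marker sums there, at 271, 55.4 and 11.9 CPM. The study used 4 mice per group after leaving out 1 per group that failed to cluster, without naming it. Values without mice 9 and 10 (8 mice) are given for each gene in addition to those over all 10. That mice 9 and 10 were the ones left out was assumed from earlier results of these libraries, so the subset is not an independent check. On the first principal component mouse 10 stood apart in total RNA (-48.7) and mouse 11 in polysome RNA (-53.4), while mouse 9 was at -10.7 and 0.38. Mouse 11 was the highest SNORA73 LNA mouse for Ptprb, Ptprf and Ptprk in polysome RNA, and without it their log2 fold changes were 0.41, 0.28 and 0.59.

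Sequence just upstream of Ptprg and Ptprk is printed here from the RefSeq promoter table of GRCm38.p6, because these were the 2 genes called higher in polysome RNA over 8 mice. Each run is on the plus strand, 5′ to 3′, and ends at the base before the first annotated base of the gene, and capitals mark the GC box (GGGCGG or its reverse complement CCGCCC). The Ptprg run is chr14:11553303-11553439 and the Ptprk run chr10:28074570-28074819.
Ptprg: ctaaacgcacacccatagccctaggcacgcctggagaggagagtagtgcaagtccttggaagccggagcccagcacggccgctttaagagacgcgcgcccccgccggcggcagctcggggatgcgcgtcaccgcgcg
Ptprk: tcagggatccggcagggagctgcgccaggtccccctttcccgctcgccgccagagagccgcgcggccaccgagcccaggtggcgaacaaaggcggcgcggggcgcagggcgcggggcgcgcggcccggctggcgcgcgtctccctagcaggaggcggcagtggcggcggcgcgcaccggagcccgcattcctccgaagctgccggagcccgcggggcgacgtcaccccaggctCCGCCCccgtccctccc
Both stretches are rich in CpG. Over the 250 bases before the start used in the table, this first promoter of Ptprg held 31 CpG, more than 94.8% of 32851 promoters, and the promoter of Ptprk held 38, more than 98.1%, against a median of 6. A second Ptprg promoter inside the gene (chr14:12189693-12189942) held 6. Ptprk had 1 GC box in that window and Ptprg had 0, while 32.7% of all promoters of this length held at least 1 on either strand. Of the 10 genes, 8 had promoters in the table, 13 in all, and 7 of these 13 held a GC box. TATAAA or its reverse complement was present in 1 of the 13, a promoter of Ptpre, and in 12.4% of all promoters.

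Ptprg, a phosphatase that has been linked to insulin action in the liver, varied from 31 to 571 counts per library. In total RNA it was at 5.34, 3.96, 6.34, 7.03 and 20.7 CPM in the GFP LNA mice and at 17.4, 14.9, 14.4, 20.9 and 16.4 CPM in the SNORA73 LNA mice. The groups overlapped through mouse 9 alone, whose level lay above 4 of the 5 SNORA73 LNA mice. Means were 8.68 ± 6.83 and 16.8 ± 2.58 CPM (SD, n = 5), a log2 fold change of 0.96 (SE 0.37). Over 8 mice the groups did not overlap and the log2 fold change was 1.62 (SE 0.17). In polysome RNA Ptprg was at 2.88, 1.38, 1.94, 3.49 and 7.37 CPM with the GFP LNA and at 6.84, 10.7, 6.78, 9.53 and 7.52 CPM with the SNORA73 LNA. Mouse 9 was again the highest control and reached into the range of the SNORA73 LNA mice. The polysome log2 fold change was 1.29 (SE 0.36, edgeR FDR 0.184) over 10 mice and 1.85 (SE 0.28, edgeR FDR 0.028) over 8.

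Ptprk, a homophilic adhesion phosphatase with EGF receptor among its substrates, was the 1 gene whose LNA groups were apart in both RNAs over all 10 mice. Total RNA held 21.1, 22.1, 22.3, 26.3 and 32.2 CPM in the GFP LNA mice and 34.8, 32.5, 39.7, 38.9 and 38.1 CPM in the SNORA73 LNA mice. Mouse 9 was the highest control, just below the lowest SNORA73 LNA mouse. The log2 fold change was 0.57 (SE 0.12), and 0.65 (SE 0.10) over 8 mice. Polysome RNA held 24.5, 25.5, 22.6, 24.0 and 34.2 CPM in the GFP LNA mice and 38.9, 39.1, 37.3, 46.3 and 41.3 CPM in the SNORA73 LNA mice. Here too all 5 SNORA73 LNA mice were above every control. The polysome log2 fold change was 0.63 (SE 0.13, edgeR FDR 0.0893), and 0.78 (SE 0.12, edgeR FDR 0.0296) over 8 mice.

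Ptprm, the other homophilic member, was at the edge of detection, with 5 to 39 counts per library. In total RNA its levels were 0.480, 0.743, 0.573, 0.329 and 0.472 CPM with the GFP LNA and 1.07, 0.980, 1.06, 1.07 and 1.05 CPM with the SNORA73 LNA. The groups did not overlap, and the log2 fold change was 0.98 (SE 0.23). In polysome RNA the 2 groups spanned 0.215 to 1.74 and 0.358 to 1.16 CPM. GFP LNA mouse 2 was the highest of all, and 3 of the 5 SNORA73 LNA mice lay above the other 4 controls. The log2 fold change was 0.31 (SE 0.56, edgeR FDR 0.849), and ranged from 0.07 without mouse 3 to 1.05 without mouse 2 (edgeR FDR 0.977 and 0.488). Over 8 mice the values were 0.94 (SE 0.27) and 0.18 (SE 0.67, edgeR FDR 0.932).

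**Figure D1:**
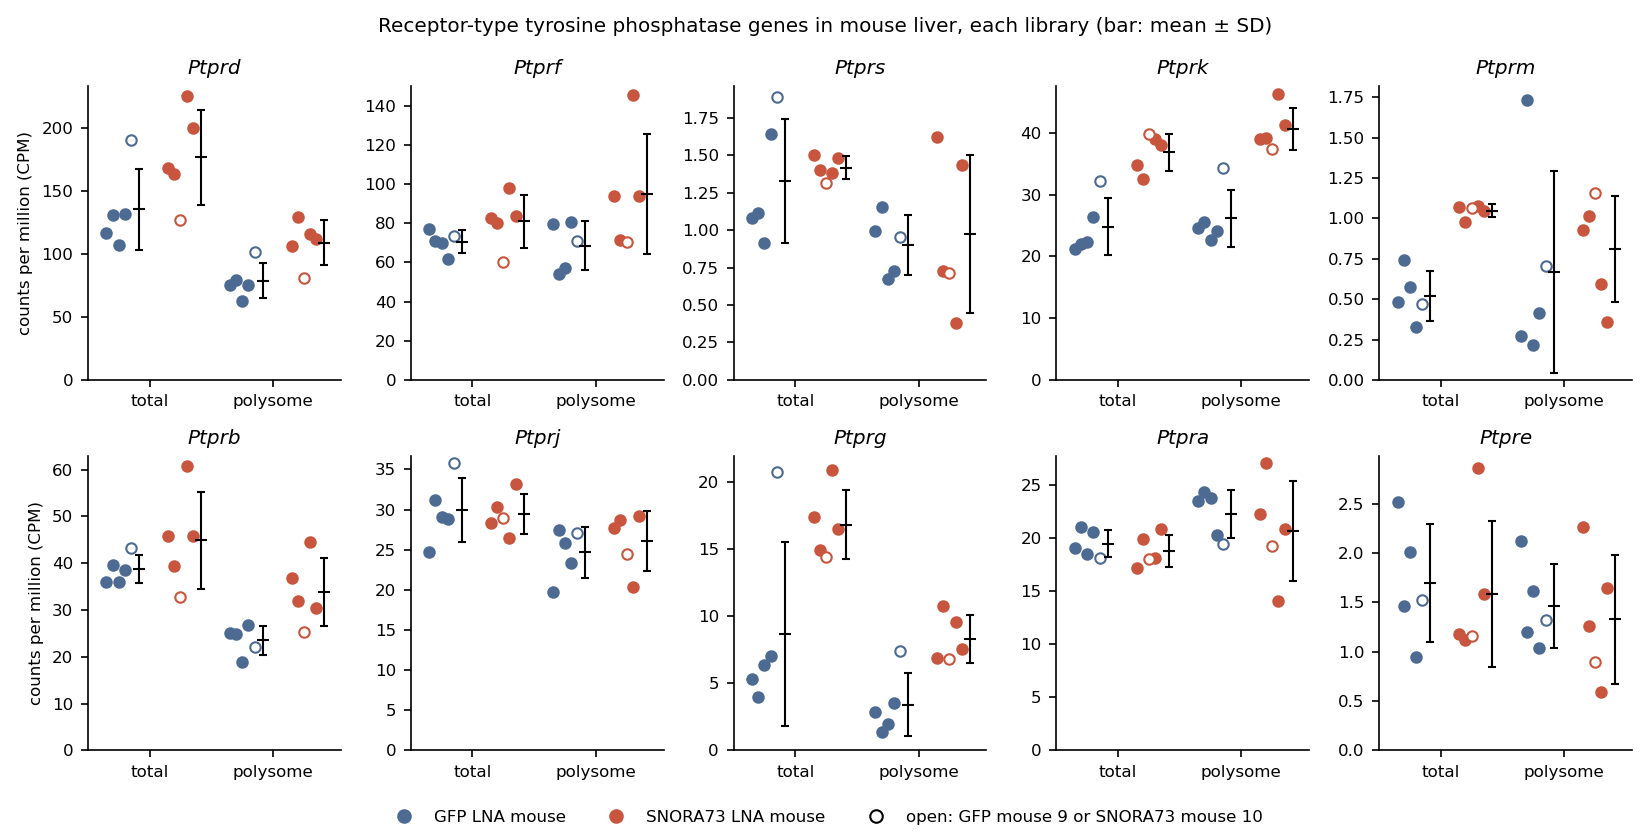
Levels of the 10 RPTP genes in CPM (vertical axes, each from 0) in total and polysome RNA, with 1 point per mouse, GFP LNA in blue and SNORA73 LNA in red, and bars for the mean ± SD of 5 mice. Ptprk was higher in all 5 SNORA73 LNA mice than in every control in both RNAs, and the open blue point of mouse 9 was the highest control for Ptprg, Ptprk and Ptprd in both RNAs.

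Within the LAR group, Ptprd, which acts on Stat3 among other proteins, was at 117, 131, 107, 131 and 189.9 CPM in total RNA of the GFP LNA mice and at 168, 163, 127, 225 and 200.2 CPM with the SNORA73 LNA. Mouse 9 was the highest control and mouse 10 the lowest SNORA73 LNA mouse, and the groups were apart over 8 mice only. The log2 fold change was 0.38 (SE 0.18) over 10 mice and 0.64 (SE 0.12) over 8. In polysome RNA the controls of Ptprd spanned 62.7 to 101 CPM and the SNORA73 LNA mice 81.0 to 129 CPM. Mouse 10 was the lowest and the other 4 SNORA73 LNA mice were above every control, with a log2 fold change of 0.46 (SE 0.15, edgeR FDR 0.233), or 0.66 (SE 0.13, edgeR FDR 0.0752) over 8 mice.

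Ptprf, or LAR, which can dephosphorylate the insulin receptor, was at 61.6 to 77.0 CPM in total RNA of the GFP LNA mice and at 82.6, 80.1, 60.2, 97.9 and 83.9 CPM with the SNORA73 LNA. Mouse 10 was below all controls and the other 4 were above them. The log2 fold change was 0.19 (SE 0.12) in total and 0.47 (SE 0.20, edgeR FDR 0.339) in polysome RNA, where levels ran from 53.9 to 80.9 and from 70.3 to 145.5 CPM. With single mice left out, the total RNA value of Ptprf ranged from 0.11 to 0.28. Ptprs, a receptor for heparan and chondroitin sulfate, had 7 to 52 counts per library, and its groups overlapped in both RNAs. Its log2 fold change was 0.11 (SE 0.22) in total and 0.10 (SE 0.40) in polysome RNA, and both signs turned when single mice were left out. Over 8 mice the values were 0.30 (SE 0.10) and 0.58 (SE 0.22, edgeR FDR 0.279) for Ptprf and 0.30 (SE 0.22) and 0.22 (SE 0.47, edgeR FDR 0.877) for Ptprs.

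Ptprb was at 36.1, 39.5, 36.0, 38.6 and 43.3 CPM in total RNA of the GFP LNA mice and at 45.9, 39.4, 32.9, 60.7 and 45.8 CPM with the SNORA73 LNA. Mouse 10 was the lowest of all 10 mice and mouse 11 the highest, so that the groups overlapped at a log2 fold change of 0.21 (SE 0.14), which was 0.08 without mouse 11 and 0.30 without mouse 10. In polysome RNA Ptprb was at 25.2, 24.8, 18.9, 26.7 and 22.0 CPM and at 36.7, 31.8, 25.3, 44.6 and 30.5 CPM. All SNORA73 LNA mice other than mouse 10 were above every control, and the log2 fold change was 0.52 (SE 0.16, edgeR FDR 0.203). Over 8 mice the values were 0.35 (SE 0.12) and 0.59 (SE 0.16, edgeR FDR 0.15).

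Because Ptprb marks endothelial cells, 10 markers of liver sinusoidal endothelium were read beside it. All 10 were detected, and 9 had a positive log2 fold change in each RNA, against 51.7% and 48.6% of all genes. Their median was 0.26 in total and 0.27 in polysome RNA. An unadjusted p under 0.05 in edgeR was found for 5 in total and 3 in polysome RNA, against 8.6% and 13.4% of all genes. DESeq2 called 2 higher in each RNA, where it called 36 and 217 genes higher in all. Stab2, a scavenger receptor of these cells, passed the test in total RNA at a log2 fold change of 1.06 (SE 0.15, edgeR FDR 0.0497). In polysome RNA it did not pass (1.01, SE 0.21, edgeR FDR 0.0857). Over 8 mice Stab2 passed in total (1.23, SE 0.13, edgeR FDR 0.00229) and polysome RNA (1.30, SE 0.17, edgeR FDR 0.0126). Gpr182 then passed in total RNA (0.52, SE 0.10, edgeR FDR 0.0428). The share of all genes called higher was 0.0303% in total RNA, and 0.553% in total and 0.211% in polysome RNA over 8 mice. In total RNA the 10 markers summed to 177 to 208 CPM with the GFP LNA and 211 to 244 with the SNORA73 LNA. In polysome RNA the sums were 144 to 162 against 169 to 199.5 CPM, without overlap in either RNA. Per 100 CPM of these markers, Ptprb was at 20.4 ± 0.836 and 19.9 ± 5.48 CPM in total RNA and at 15.4 ± 2.20 and 18.7 ± 4.97 CPM in polysome RNA (GFP and SNORA73 LNA, SD, n = 5). In bulk tissue, more cells of a type and more RNA per cell cannot be told apart, and the part of endothelial RNA in the Ptprb values was not tested.

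Ptprj, Ptpra and Ptpre had small differences between LNA groups, as had Ptprs. Ptprj, which acts on growth factor receptors such as Met, was at 24.7 to 35.8 and 26.4 to 33.2 CPM in total RNA, at a log2 fold change of -0.02 (SE 0.11). In polysome RNA it was at 0.07 (SE 0.14, edgeR FDR 0.859), a sign that turned without mouse 1. Ptpra, an activator of Src, was at 18.1 to 21.0 and 17.2 to 20.8 CPM in total RNA, at a log2 fold change of -0.05 (SE 0.08), and its polysome log2 fold change was -0.11 (SE 0.16, edgeR FDR 0.802). Both genes had overlapping groups in both RNAs. Ptpre, close in structure to Ptpra, had 11 to 88 counts per library, and its log2 fold changes were -0.11 (SE 0.31) and -0.16 (SE 0.36, edgeR FDR 0.887). Over 8 mice the total and polysome values were 0.06 (SE 0.10) and 0.14 (SE 0.16) for Ptprj, -0.06 (SE 0.09) and -0.12 (SE 0.18) for Ptpra, and -0.07 (SE 0.35) and -0.07 (SE 0.41) for Ptpre, with edgeR FDR of 0.755 to 0.96 in polysome RNA.

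Across the 10 genes, the log2 fold change was positive for 7 in total RNA, with a median of 0.20, where 51.7% of the 13195 genes tested were positive with a median of 0.01. In polysome RNA it was positive for 8, with a median of 0.39, against 48.6% of 13060 genes with a median of -0.01. Over all genes 0.0303% were called higher in total RNA by the thresholds given next. With edgeR, 0 of the 10 genes passed the test in polysome RNA over 10 mice (FDR under 0.05 with a log2 fold change of at least 0.5 for higher or under 0 for lower), where 0.0153% of all genes were called higher and 0% lower. An unadjusted p under 0.05 in edgeR was found for 5 of the 10 and for 13.4% of all genes. With limma-voom 0 were called, and DESeq2, which called 217 genes higher in all, called Ptprg (FDR 0.0216) and Ptprk (FDR 0.00265). Over 8 mice edgeR called Ptprg and Ptprk higher, 2 of 10 against 0.211% of all genes, and 0 lower against 0.0312%. Leaving out mouse 9 alone gave the same calls, with FDR 0.0258 for both. Mouse 9 was the highest control of both genes in polysome RNA, so its removal favors these calls. The genes were also chosen with results of these data known, and nothing is read from the count of calls.

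**Figure D2:**
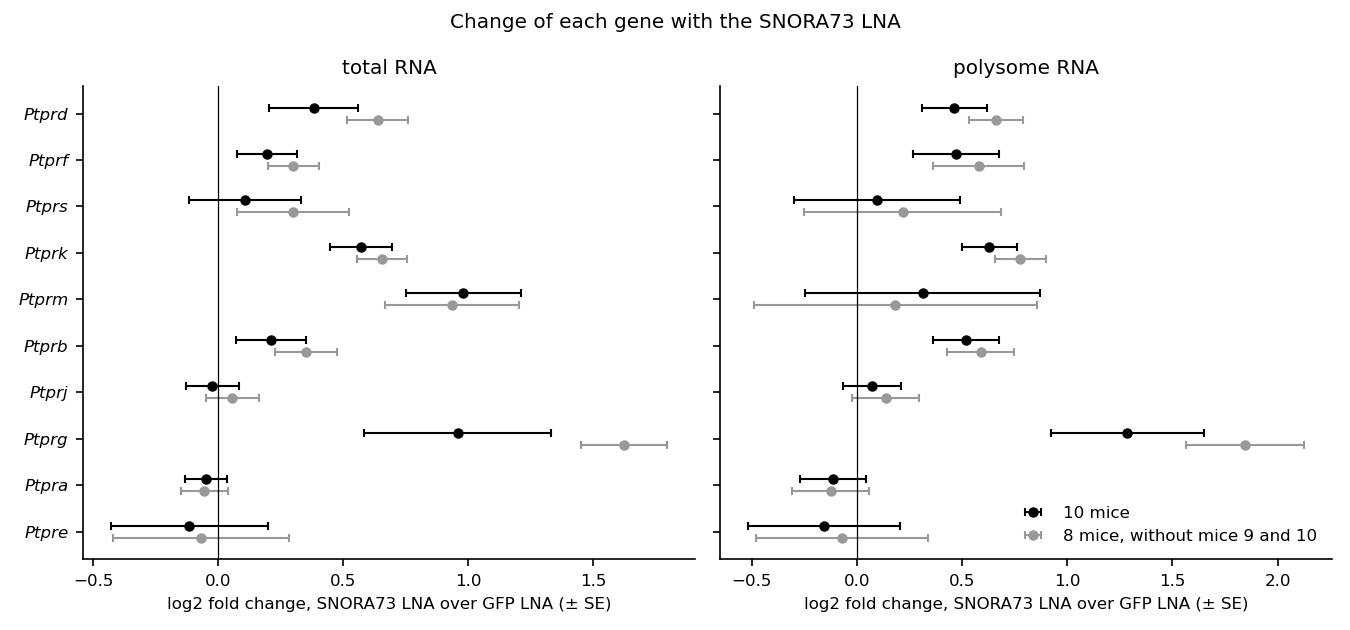
Log2 fold change of SNORA73 LNA over GFP LNA (horizontal axis) for each RPTP gene in total RNA (left) and polysome RNA (right), with bars for the SE, black over 10 mice and grey over 8. Ptprg had the largest value over 8 mice in both panels, 1.62 and 1.85, and the short-ectodomain genes Ptpra and Ptpre were at or below 0.

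Groups that did not overlap were found for 2 of the 10 genes in total RNA, Ptprk and Ptprm, where 1.14% of all genes tested were higher in every SNORA73 LNA mouse. This contrast led to the choice of the genes. Ptprm was above 0.5 CPM in every SNORA73 LNA library, while its GFP LNA libraries lay on both sides of 0.5 CPM. Ptprm thus passed the filter through the group where it was high, and nothing is read from the count of genes. In polysome RNA this held for Ptprk alone, where the share of all genes was 2.07%. Over 8 mice it held for Ptprd, Ptprf, Ptprg, Ptprk and Ptprm in total RNA (4.23% of all genes) and for Ptprb, Ptprd, Ptprg and Ptprk in polysome RNA (5.02%). None of the 10 genes was lower in every SNORA73 LNA mouse in either RNA, over 10 mice or over 8. Of all genes 0.697% in total and 1.16% in polysome RNA were lower in this way over 10 mice, and 3.3% and 3.49% over 8, so that 0 of 10 is close to the background. Mouse 9 was the highest control for 6 of the 10 genes in total RNA and for 3 in polysome RNA. Mouse 10 was the lowest SNORA73 LNA mouse for 5 of the 10 genes in each RNA.

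The question of how far the 10 mRNAs were held on polysomes was taken up within each LNA group, polysome against total RNA of the same 5 livers, a contrast that did not enter the choice of genes. A ratio of CPM compares a gene with the other RNAs of its library and does not give ribosomes per mRNA. Ptprg was the lowest of the 10 by median ratio in both groups. Its polysome CPM was 0.540, 0.348, 0.305, 0.497 and 0.356 of the total CPM in the GFP LNA mice and 0.393, 0.721, 0.472, 0.457 and 0.457 in the SNORA73 LNA mice. All 10 mice were below 1 and the LNA groups overlapped. The log2 fold change was -1.36 (SE 0.51, edgeR FDR 0.0425) in the GFP LNA mice and -1.01 (SE 0.16, edgeR FDR 0.00078) in the SNORA73 LNA mice. In the GFP LNA mice the call was lost without mouse 1, 2, 3 or 8, at FDR 0.0545 to 0.101, and was kept with mouse as a block (FDR 7.56e-06).

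Ptprd was lower in polysome than in total RNA in all 10 mice. Ratios were 0.646, 0.604, 0.584, 0.573 and 0.532 with the GFP LNA and 0.630, 0.790, 0.640, 0.515 and 0.558 with the SNORA73 LNA. The LNA groups overlapped. The log2 fold changes were -0.79 (SE 0.16, edgeR FDR 0.00142) and -0.70 (SE 0.17, edgeR FDR 0.00871). Ptprb was likewise below 1 in all 10 mice, at 0.697, 0.628, 0.524, 0.693 and 0.509 with the GFP LNA and 0.801, 0.809, 0.769, 0.734 and 0.665 with the SNORA73 LNA. It passed the test in the GFP LNA mice (log2 fold change -0.73, SE 0.10, edgeR FDR 8.68e-05) and not in the SNORA73 LNA mice (-0.41, SE 0.18, edgeR FDR 0.105). With mouse as a block the latter FDR was 0.00561, at a log2 fold change still short of the 0.5 required, and the difference between the LNA groups was not tested. Of the 10 endothelial markers, 8 had a negative and 2 a positive log2 fold change in this contrast in each group, where 51.4% and 51.8% of all genes were positive. In the GFP LNA mice 5 were called lower (19.3% of all genes) and in the SNORA73 LNA mice 4 (14% of all genes), Kdr and Cdh5 among them.

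Altogether 3 of the 10 RPTP genes (Ptprb, Ptprd and Ptprg) were lower on polysomes in the GFP LNA mice, where 19.3% of 13283 genes were called lower and 17.3% higher (21.4% lower with mouse as a block). In the SNORA73 LNA mice 2 (Ptprd and Ptprg) were lower, where 14% of 13063 genes were called lower and 14.6% higher. None of the 10 was called higher in either group, with edgeR, limma-voom or DESeq2. With 10 genes these counts are close to the background and are no result about the family. Ptprk and Ptpra had median ratios above 1, of 1.06 and 1.16 with the GFP LNA and 1.12 and 1.07 with the SNORA73 LNA, and their lowest ratios were 0.913 and 0.776. Ptprj was below 1 in all 10 mice, from 0.756 to 0.977, with log2 fold changes of -0.29 (SE 0.12, edgeR FDR 0.0605) and -0.18 (SE 0.13, edgeR FDR 0.317). With mouse as a block the FDR in the GFP LNA mice was 0.00222, at a log2 fold change short of the 0.5 required. Ptprf lay on both sides of 1 in both groups. Ratios of the 3 genes with the fewest reads were wide, from 0.273 to 1.08 for Ptprs, 0.343 to 2.34 for Ptprm and 0.207 to 1.91 for Ptpre.

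**Figure D3:**
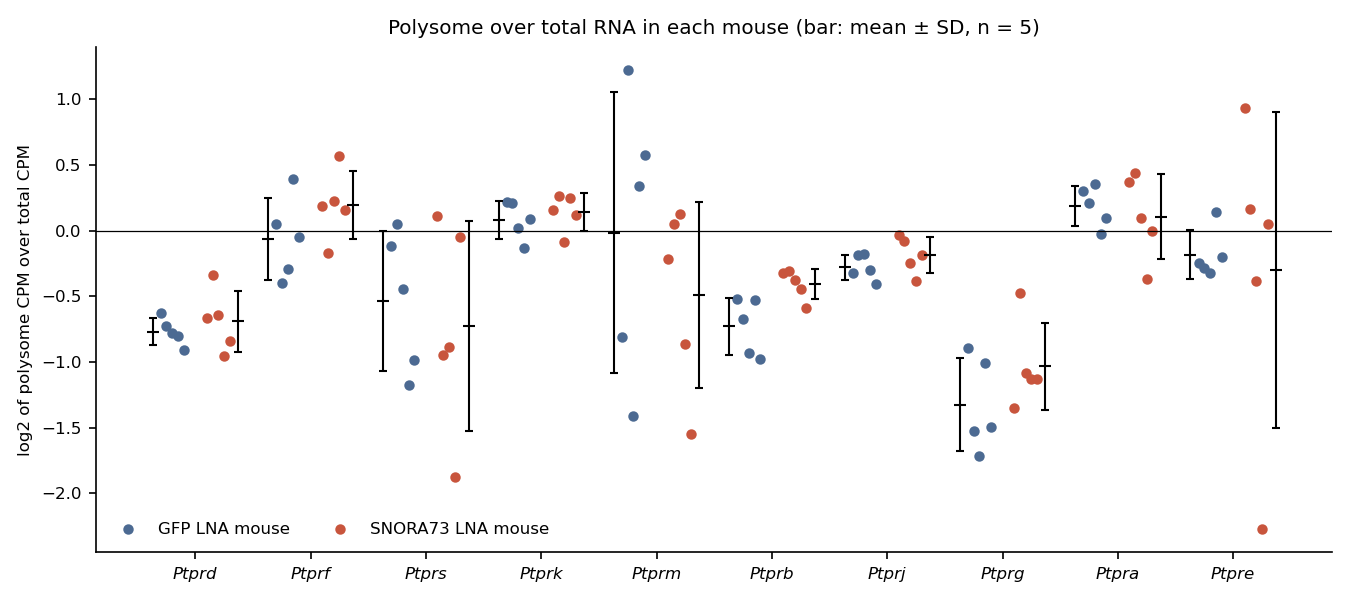
Log2 of polysome CPM over total CPM (vertical axis) for each RPTP gene and mouse, GFP LNA in blue and SNORA73 LNA in red, with bars for the mean ± SD of 5 mice. Ptprd, Ptprb, Ptprj and Ptprg were below 0 in all 10 mice, whereas Ptprk and Ptpra had values on both sides of 0.

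The change of this ratio with the SNORA73 LNA was estimated as an interaction term. It holds the total RNA contrast and is given without a test. It was 0.31 (SE 0.22) for Ptprb, 0.28 (SE 0.25) for Ptprf and 0.33 (SE 0.56) for Ptprg. For Ptprk it was 0.06 (SE 0.18) and for Ptprd 0.08 (SE 0.24), and for Ptpra, Ptpre, Ptprj and Ptprs it was between -0.06 and 0.10. Ptprm was at -0.66 (SE 0.62), a value that shrank to -0.09 without mouse 2. The median of the 10 was 0.07, against -0.01 over all 13795 genes tested. This fit did not pair the total and polysome library of a mouse, so the genes are not sorted by these SE. Per mouse, the log2 ratio of Ptprb was -0.73 ± 0.22 with the GFP LNA and -0.41 ± 0.12 with the SNORA73 LNA (SD, n = 5). That of Ptprg was -1.32 ± 0.35 and -1.03 ± 0.33, and that of Ptprm -0.01 ± 1.07 and -0.49 ± 0.71. Over all genes the interaction called 0% higher and 0.00725% lower.

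A property the 10 genes share is length, which was not itself a criterion of their choice. Long genes leaned higher in the contrast behind that choice, as given below, so length is not independent of it. In the RefSeq annotation of GRCm38.p6 the shortest was Ptprs, at 64136 bases, and the longest Ptprd, at 2270506 bases (chr4:75941237-78211742), longer than 99.98% of the genes tested. Ptprg (chr14:11553440-12242041), Ptprm (chr17:66666848-67354491) and Ptprk (chr10:28074820-28597397) also spanned over 300 kb. In total RNA, the contrast that led to the choice of the genes, the median log2 fold change of these 4 was 0.76, with Ptprm at 5 to 39 counts per library and past the filter through the SNORA73 LNA group. The 4 genes of 100 to 300 kb (Ptpra, Ptprb, Ptpre and Ptprj) had a median of -0.04, below the 0.15 of the 2 shorter ones, Ptprf and Ptprs.

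Long genes leaned the same way in the table as a whole. The median log2 fold change in total RNA was 0.00 for the 5795 genes under 20 kb, 0.03 for the 1244 of 100 to 300 kb and 0.12 for the 253 over 300 kb, of which 63.6% were positive. In polysome RNA the medians were -0.06, 0.11 and 0.25, and 74.8% of the 238 genes over 300 kb were positive. There the median of the 4 long RPTP genes was 0.55, that of the 4 of 100 to 300 kb -0.02 and that of the 2 shorter ones 0.28, and Ptprb (0.52) and Ptprf (0.47) were above the longer Ptprd (0.46) and Ptprm (0.31). Long genes were also lower on polysomes, with a median of -0.43 in the GFP LNA mice and -0.24 in the SNORA73 LNA mice for genes over 300 kb, against 0.25 and 0.20 for those under 20 kb. For RPTP genes of 20 to 100 kb, 100 to 300 kb and over 300 kb the medians of that contrast were -0.31, -0.25 and -0.36 in the GFP LNA mice and -0.16, -0.22 and -0.52 in the SNORA73 LNA mice, the latter falling with length. The part of gene length in the values of the RPTP genes was not tested.

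**Figure D4:**
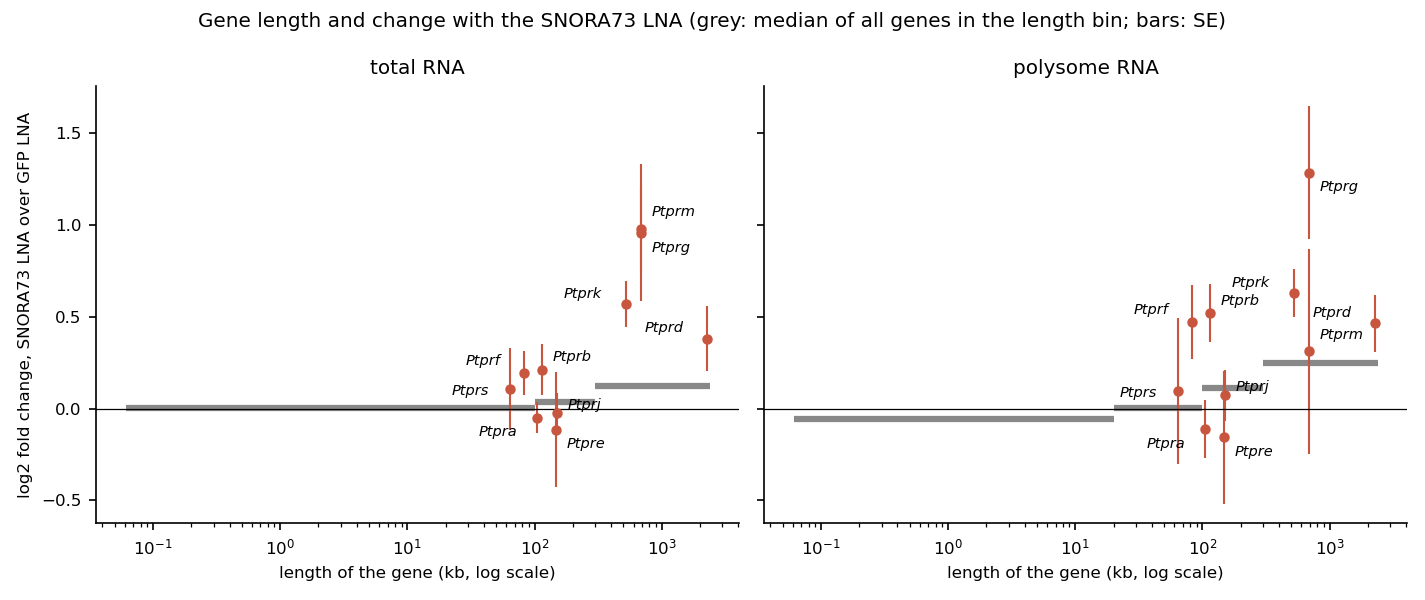
Log2 fold change of SNORA73 LNA over GFP LNA (vertical axis, bars are SE) against gene length in kb (horizontal log axis) for the 10 RPTP genes in red, in total RNA (left) and polysome RNA (right), with grey lines at the median of all genes in 4 length bins. The grey line of genes over 300 kb is at 0.12 in total and 0.25 in polysome RNA, and the 4 RPTP genes of that length lay above it over 10 mice, Ptprm in polysome RNA by less than its SE. The RPTP genes were chosen with total RNA values known.

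Of the 11 other RPTP genes in the table, most were near the limit of detection. Ptprc, the CD45 phosphatase of leukocytes, was at 3.39 to 7.07 CPM in total RNA and passed no LNA test, with log2 fold changes of -0.12 (SE 0.21) and 0.01 (SE 0.37). It was lower in polysome than in total RNA in the GFP LNA mice (log2 fold change -1.33, SE 0.24, edgeR FDR 0.000746) and in the SNORA73 LNA mice (-1.18, SE 0.33, edgeR FDR 0.0155). Ptprt and Ptpro reached 0.859 and 0.689 CPM at most, Ptprh and Ptprq had 0 counts in all 20 libraries, which allows up to 3 counts per library, and the other 6 stayed at or under 9 counts per library.

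The cytosolic (non-receptor) tyrosine phosphatases were read beside the RPTP genes. Of 17 genes, 14 were tested in each RNA, 0 passed with edgeR, limma-voom or DESeq2, and an unadjusted p under 0.05 in edgeR was found for 0 in total and 1 in polysome RNA. Ptpn1, or PTP1B, which acts on the insulin receptor, had a log2 fold change of 0.52 (SE 0.26, edgeR FDR 0.629) in total RNA. Its level there was 7.27 to 10.1 CPM with the GFP LNA and 7.39 to 22.9 CPM with the SNORA73 LNA. The SNORA73 LNA mean of 12.2 ± 6.11 CPM (SD, n = 5) was raised by its highest library. Ptpn6, or SHP-1, was at -0.26 (SE 0.12, edgeR FDR 0.363) and Ptpn4 at 0.56 (SE 0.26, edgeR FDR 0.378) in polysome RNA. Few genes of any kind passed in these contrasts, and a p that misses the threshold does not show that levels were alike. On polysomes of the GFP LNA mice Ptpn1, Ptpn6, Ptpn18 and Ptpn23 were higher than in total RNA and Ptpn4 and Ptpn22 lower, with the largest value for Ptpn4 (-2.07, SE 0.14, edgeR FDR 7.11e-07). In the SNORA73 LNA mice Ptpn18 was higher and Ptpn3 and Ptpn4 lower. Of all genes 17.3% and 14.6% were called higher and 19.3% and 14% lower in these groups, so that the counts among 14 genes are close to the background.

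Extracellular ligands and co-receptors of RPTPs and their intracellular partners likewise had 0 calls for the LNA with edgeR over 10 mice. Of 34 ligand genes 12 were tested in each RNA, with 1 unadjusted p under 0.05 in total RNA, that of Hspg2 (perlecan, a heparan sulfate proteoglycan), at a log2 fold change of 0.39 (SE 0.13, edgeR FDR 0.42). In polysome against total RNA 5 of the 11 tested in the GFP LNA mice were called lower (19.3% of all genes), namely the syndecans Sdc2 and Sdc4, Il1rap, Slitrk2 and Mdga2, and 2 of the 12 in the SNORA73 LNA mice (14% of all genes), Il1rap and Mdga2. Of the 10 partners 7 were tested, with an unadjusted p under 0.05 for 3 in total and 1 in polysome RNA, where 8.6% and 13.4% of all genes had one. The liprin Ppfibp1 had the lowest p in total RNA, at a log2 fold change of -0.34 (SE 0.11, edgeR FDR 0.378). Trio, a protein that binds LAR, was at 0.534 to 5.04 CPM in total RNA of the GFP LNA mice and at 3.64 to 5.22 CPM with the SNORA73 LNA. Its log2 fold change over 10 mice was 1.39 (SE 0.53, edgeR FDR 0.485) in total and 1.44 (SE 0.45, edgeR FDR 0.216) in polysome RNA. The GFP LNA mean in total RNA, 1.62 ± 1.93 CPM (SD, n = 5), was raised by its highest library, which lay within the SNORA73 LNA range. Over 8 mice, a subset that is no independent check, Trio passed the test in total (2.43, SE 0.24, edgeR FDR 0.00211) and polysome RNA (2.24, SE 0.32, edgeR FDR 0.0231). Of all genes 0.553% and 0.211% were called higher over 8 mice. DESeq2 called 1 partner in polysome RNA over 10 mice. The liprins Ppfia1 and Ppfibp1 were lower on polysomes in both LNA groups.

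All 28 tyrosine kinases and other substrates on the list were tested. With edgeR 0 passed for the LNA in either RNA, with an unadjusted p under 0.05 for 5 in total and 6 in polysome RNA, against 8.6% and 13.4% of all genes. DESeq2 called 0 and 2, and limma-voom 0 and 0. Median log2 fold changes were 0.09 in total and 0.16 in polysome RNA. The lowest p in polysome RNA was that of Flt1, a VEGF receptor of endothelial cells, at a log2 fold change of 0.74 (SE 0.16, edgeR FDR 0.0992). In polysome against total RNA 12 of the 28 were called lower in the GFP LNA mice (19.3% of all genes) and 10 in the SNORA73 LNA mice (14% of all genes), and 7 and 9 of the 28 had a positive log2 fold change. Called lower in both groups were, among others, Met, Fgfr2, Kdr, Tek, the partner receptor of Ptprb, and the junction genes Ctnnb1, Cdh2 and Cdh5. Csk was higher on polysomes in both groups and Bcar1 in the GFP LNA mice.

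Markers of other liver cells gave these sums. Kupffer cell markers (8 genes, all detected) were at 159 to 256 and 152 to 271 CPM in total RNA of the GFP and SNORA73 LNA mice, and stellate cell markers (10 genes, all detected) at 299.8 to 389 and 252 to 374 CPM. Cholangiocyte markers (7 genes) were at 18.8 to 36.1 and 12.8 to 55.4 CPM, lymphocyte markers (8 genes) at 2.48 to 5.08 and 2.55 to 3.87 CPM, and neutrophil markers (6 genes, 2 without a count in both groups) at 2.29 to 6.45 and 1.30 to 11.9 CPM. The LNA groups overlapped for each of these lists. With edgeR, limma-voom and DESeq2 0 of the genes of these 5 lists or of the hepatocyte list passed for the LNA in either RNA over 10 mice. In edgeR, an unadjusted p under 0.05 was found in total RNA for 1 of 10 stellate cell markers tested. It was also found there for 1 of 3 cholangiocyte and 1 of 3 lymphocyte markers tested. In polysome RNA 1 of 10 hepatocyte and 1 of 5 lymphocyte markers tested had one. The share over all genes was 8.6% in total and 13.4% in polysome RNA, and nothing is read from these few.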

How the data were processed

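Libraries of total and polysome RNA from 10 mouse livers were analysed, 1 of each per mouse. The authors deposited estimated counts for each gene, obtained by trimming with fastp, removal of rRNA reads, quantification on GRCm38 transcripts with kallisto and summing with tximport. Levels are not compared between genes, since transcript lengths were not used. Because kallisto shares reads among compatible transcripts, counts of overlapping genes are less certain.

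Estimated counts were rounded. Symbols matched 51903 of 53028 identifiers, and 0 sample columns were left unused. Genes with CPM above 0.5 in at least 4 libraries of a fit were kept, so genes detected in 1 group could pass through that group. All 10 RPTP genes passed in the fits over 10 and 8 mice. The main test was edgeR quasi-likelihood (version 4.0.16, R 4.3.3) with TMM scaling and Benjamini-Hochberg adjustment (FDR) over all genes tested. A call needed an FDR under 0.05 and, for the LNA, a log2 fold change of at least 0.5 (higher) or under 0 (lower), the thresholds of the study, and for polysome against total RNA an absolute value of at least 0.5. Printed CPM are on 1 TMM scale over 20 libraries. Alternatives were limma-voom (limma 3.58.1), DESeq2 1.42.0, other scalings and filters, unrounded counts, 1 fit of 20 libraries, each mouse left out, 8 mice, and mouse as a replicate block. Tests were checked on simulated counts.

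The mouse number in the labels ties the total and polysome library of an animal. Deviations from group means correlated at 0.146 to 0.694 within a mouse, and 9 of 10 mice correlated best with their own number. Whether mice shared a litter or batch is not stated, and p-values measure the spread between these mice.

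The 10 genes and all lists were chosen with earlier results of these data known. Text names the 10 genes always and, of each list, genes called in a comparison or the 2 with the lowest p. Gene positions and promoters came from RefSeq on GRCm38.p6, and 94.2% of the genes tested in total RNA had a length. A count of 0 allows up to 3 counts, for counting error only. The labels spell the LNA target Snora37.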

Additional observations from a re-analysis of the deposited data

Results flagged for a closer look

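In 4 of 40 groups of 5 libraries examined for the 10 RPTP genes, 1 library stood out from the rest on the CPM scale, by a gap to its nearest neighbor above 0.71 of the whole range, the critical value of Dixon's test for 5 samples. Chance gives about 1 in 20. Total RNA of GFP LNA mouse 9 stood out for Ptprg (20.7 CPM, gap 0.817) and Ptprd (189.9 CPM, gap 0.7104), and its polysome RNA for Ptprk (34.2 CPM, gap 0.753). Total RNA of SNORA73 LNA mouse 11 stood out for Ptpre (2.86 CPM, gap 0.732), at 56 counts. On log2(CPM + 0.5), Ptprk alone passed, at a gap of 0.713. Without mouse 9 the polysome log2 fold change of Ptprk was 0.75 (SE 0.11, edgeR FDR 0.0258).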

How the results depend on the processing

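With library totals in place of TMM the all-gene median moved to -0.14 in total and -0.17 in polysome RNA (0.01 and -0.01 with TMM). The median of the 10 RPTP genes moved to 0.066 and 0.23. Positive RPTP genes were then 6 in each RNA, where 23.1% of all genes in total and 30.1% in polysome RNA were positive. Polysome calls of RPTP genes for the LNA, 0 of 10, became 2 with DESeq2, 1 (Ptprk, FDR 0.0137) in a single fit of 20 libraries, 2 over 8 mice, and 0 to 2 when single mice were left out, with 2 without mouse 9. Calls on polysome against total RNA were 2 to 3 in GFP LNA mice and 2 in SNORA73 LNA mice over all settings, 3 and 2 with mouse as a replicate block, which changed no call of an RPTP gene.

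Signs turned for small values of the LNA contrast. In polysome RNA Ptprs turned with limma-voom (-0.069), library totals (-0.043) and without mouse 4 or 12 (leave-one-out range -0.17 to 0.31), and Ptprj with library totals (-0.077) and without mouse 1 (-0.0022 to 0.16). Ptpre turned without mouse 1 or 11 (-0.44 to 0.042) and Ptpra without mouse 11 (-0.22 to 0.014). In total RNA Ptprs turned with library totals (-0.035) and without mouse 3 (-0.0093 to 0.26), Ptprj over 8 mice (0.057) and without mouse 9 or 11 (-0.090 to 0.042), and Ptpre without mouse 1 (-0.43 to 0.063). In polysome against total RNA, Ptprm turned with limma-voom (-0.17) and Ptprf without mouse 2 (-0.17 to 0.019) in GFP LNA mice, and Ptpre without mouse 11 (-0.62 to 0.24) in SNORA73 LNA mice. The cause was not tested.

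Calls over all genes for the LNA were 4 higher and 0 lower in total RNA and 2 and 0 in polysome RNA. With DESeq2 they were 36 and 21, and 217 and 50. Without the filter they were 10 and 3, and 66 and 6, and at CPM above 1 in every library 2 and 0, and 29 and 2. Over 8 mice they were 72 and 21, and 27 and 4, and without mouse 9 alone 49 and 10, and 15 and 2. A single fit of 20 libraries gave 221 and 75 in polysome RNA, and library totals gave 2 higher in total and 0 in polysome RNA. Leaving out any other mouse gave 1 to 2 higher in total RNA and 0 to 7 in polysome RNA.

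Ptprm, Ptprs and Ptpre had at most 88 counts per library, and the SE of their polysome log2 fold changes was 0.36 to 0.56, against 0.13 for Ptprk.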

Other observations

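Ptprt, an adhesion phosphatase of the same homophilic group as Ptprk and Ptprm, had 1 to 22 counts per library. Its polysome CPM was 0.041 to 0.223 with the GFP LNA and 0.215 to 0.646 with the SNORA73 LNA, while total RNA was at 0.371 to 0.575 and 0.140 to 0.859 CPM. The interaction of RNA and LNA was 1.52 (SE 0.68, unadjusted p 0.0366, edgeR FDR 1.0), the lowest p among the 3 other RPTP genes tested there, and it did not pass the test.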
